A study of Mus musculus with 6 samples.

Results

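The genes followed here in bulk RNA sequencing of mouse liver are 10 that the transcription factor p53 switches on: Cdkn1a, Mdm2, Ccng1, Bax, Bbc3, Gdf15, Phlda3, Trp53inp1, Zmat3 and Aen. They were chosen by name, as p53 targets that act in cell cycle arrest, cell death and feedback. All 10 were found among the 24411 gene symbols of the tables, and all 10 were among the 13563 genes with enough reads to be tested. The series holds 3 control and 3 Cyr61 KO liver libraries. Both groups carried the same labelled strain, Cyr61fl/fl (floxed Cyr61 alleles), and were of male mice aged 24 weeks on a diet that brings on NASH, fatty liver with inflammation, over 12 weeks. The enzyme or cell type used to delete the gene is not given in the sources used here. Nor do the labels tie each library to a mouse of its own, and the p-values then rest on a spread among libraries that may be technical. The series title places CYR61, a secreted protein of the extracellular matrix, in the fibrosis of NASH and in macrophages that derive from monocytes. The question taken up here is which p53 target transcripts differed when Cyr61 was removed.

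p53 is held at a low level in unstressed cells because Mdm2, itself a p53 target, marks it for degradation. DNA damage and other stress stabilise p53, which then binds DNA as a tetramer and raises genes that stop the cell cycle, repair DNA or trigger mitochondrial cell death. In liver, Cdkn1a also restrains hepatocyte division after injury, and several targets, Gdf15 among them, respond to other stress pathways as well, so none of these genes reports p53 activity alone.

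Libraries held 21032878 to 40377742 reads in genes, and the member genes had 68 to 2515 reads per library. Levels are given as CPM, read counts relative to library size after edgeR's TMM adjustment. Cyr61, the gene removed (GRCm38 chr3:145646976-145649981, minus strand), had 15.6, 32.4 and 27.8 CPM in the controls but 3.77, 2.66 and 3.14 CPM in the knockouts, a log2 fold change of -2.98 with a standard error (SE) of 0.32 (edgeR adjusted p = 0.0103). It missed the threshold when knockout replicate 1 was dropped (edgeR adjusted p = 0.0615). Control replicate 2 differed from the rest: 25.7% of its reads fell outside genes, against 4.27% to 7.14% in the other libraries, so the members are also given without it. Albumin transcript, Alb, which marks hepatocytes, was at 23799 CPM in that library and at 66177 to 90103 CPM in the others.

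None of the 10 members passed the test, which called a gene at an edgeR adjusted p below 0.05. Over all tested genes 322 (2.37%) were called lower and 145 (1.07%) higher in Cyr61 KO liver, and a count of 0 among 10 lies near that background. Gdf15 and Phlda3 had the lowest p of the 10, with unadjusted p values under 0.05, and both were lower. That is 2 of 10 against 16.1% of all tested genes lower and 11.3% higher at the same unadjusted level. DESeq2 called these same 2 genes lower, against 10.2% of all genes called lower by that tool, and limma voom with quality weights called 5 members lower, against 17.8%. The median log2 fold change of the members was -0.12, beside -0.03 over all tested genes, and 8 of 10 members were below 0, against 51.6% of all genes. Without control replicate 2 edgeR again called 0 members, and the log2 fold changes were -1.87 for Gdf15, -1.46 for Phlda3, -0.71 for Cdkn1a, -0.52 for Bax, -0.32 for Trp53inp1, -0.20 for Zmat3, -0.14 for Ccng1, -0.07 for Bbc3, -0.02 for Mdm2 and 0.46 for Aen. The sign of Bbc3, 0.03 with all libraries, turned in that fit. In bulk liver, fewer cells of a type and less RNA per cell cannot be told apart.

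**Figure D1:**
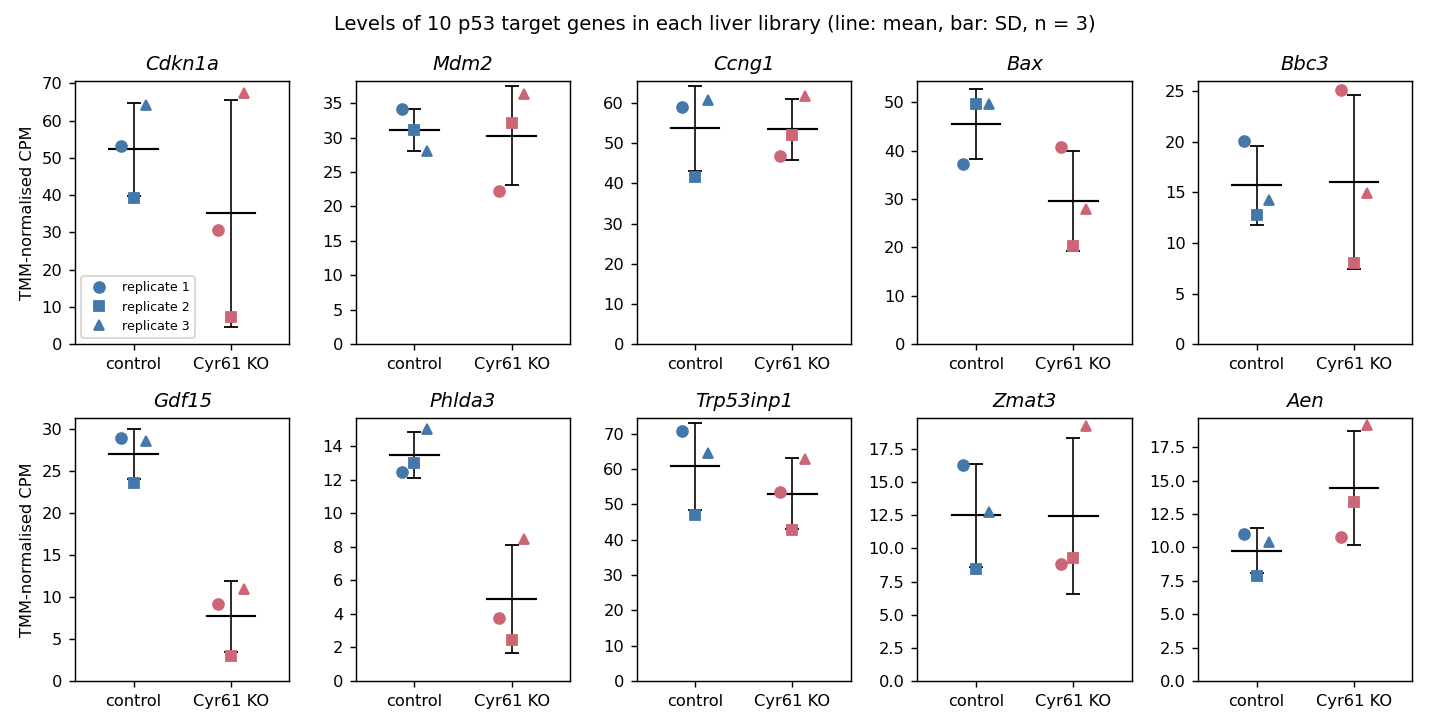
TMM-normalised CPM (y axis, from 0) of the 10 members in each library. Points are libraries, with the replicate number as the marker shape, and lines and bars are group means and SD (n = 3). Only for Gdf15 and Phlda3 do the 3 knockout libraries all lie below the 3 controls, and Cdkn1a runs from 7.27 to 67.5 CPM within the knockout group.

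The DNA near the start of transcription shows where these genes carry letters that p53 can bind. p53 recognises a palindromic 10-base unit, the p53 decamer, and its strongest sites hold a pair of such units side by side. RefSeq start windows on GRCm38.p6, 250 bases before to 50 after each start, were matched for 8 of the 10 members in 13 windows. Trp53inp1 and Zmat3 were not matched. A decamer without mismatch was found for 5 of the 8 genes, and for 9.55% of the 27025 genes with a window. The pattern reads alike on both strands, although a given decamer need not. Mismatches, where allowed, had to lie outside the centre of a decamer, a C and a G with A or T at both places between them. A pair of adjoining decamers with at most 2 mismatches in all was found for 1 of the 8, Cdkn1a, and for 0.189% of all genes. With a spacer of 0 to 13 bases allowed between the units, such a pair was found for 2 of the 8, Bax and Cdkn1a, and for 2.47% of all genes. For each member that holds a decamer, 1 decamer or pair is shown in capitals, 5′ to 3′ on the strand of the gene, with 20 bases on either side except for Aen. The Cdkn1a entry is its adjoining pair, 51 to 32 bases before the first of its RefSeq starts, with 1 mismatch (chr17:29090908-29090967, plus strand). The window of its second, downstream start (chr17:29093519-29093818) held no decamer without mismatch and no adjoining pair. Cdkn1a holds a further decamer without mismatch, 73 to 64 bases before the first start, whose last bases open the printed stretch in lower case. The Mdm2 (chr10:117710915-117710964, minus strand), Ccng1 (chr11:40755442-40755491, minus strand) and Bax (chr7:45467070-45467119, minus strand) entries lie upstream of their starts, and the Aen decamer (chr7:78895937-78895946, plus strand) lies 11 to 20 bases after the first of its RefSeq starts and 121 to 112 bases before the second.
Cdkn1a: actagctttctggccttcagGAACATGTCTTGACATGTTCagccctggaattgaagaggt
Mdm2: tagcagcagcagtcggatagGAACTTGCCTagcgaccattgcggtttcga
Ccng1: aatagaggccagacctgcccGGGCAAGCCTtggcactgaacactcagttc
Bax: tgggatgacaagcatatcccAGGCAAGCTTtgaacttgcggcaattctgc
Aen: GGGCTTGTCC

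Gdf15 and Phlda3, the members with separate groups, held no decamer without mismatch in their windows, and neither did Bbc3, whose groups overlapped. The 250 bases upstream of the first of the Gdf15 starts (chr8:70632457-70632706, minus strand) and of the Phlda3 start (chr1:135765835-135766084, plus strand) are shown. These are the members with separate groups. A match is a description of letters, not a measured p53 site, and the absence of one says only that the letters are not in this window.
Gdf15: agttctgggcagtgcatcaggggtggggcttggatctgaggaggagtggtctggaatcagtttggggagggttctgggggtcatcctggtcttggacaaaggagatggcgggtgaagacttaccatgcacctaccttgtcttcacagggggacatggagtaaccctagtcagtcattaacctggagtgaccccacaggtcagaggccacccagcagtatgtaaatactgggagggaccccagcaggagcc
Phlda3: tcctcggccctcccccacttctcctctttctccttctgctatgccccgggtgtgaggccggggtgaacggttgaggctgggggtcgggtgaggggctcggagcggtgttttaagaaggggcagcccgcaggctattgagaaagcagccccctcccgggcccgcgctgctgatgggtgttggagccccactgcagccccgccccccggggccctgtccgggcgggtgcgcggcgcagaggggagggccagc

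Among the arrest genes, Cdkn1a varied within the knockouts far more than between the groups. Cdkn1a encodes p21, the inhibitor of cyclin-dependent kinases through which p53 halts division, and lies at chr17:29090976-29100727. Control replicates 1, 2 and 3 had 53.3, 39.3 and 64.2 CPM, whereas Cyr61 KO replicates 1, 2 and 3 had 30.6, 7.27 and 67.5 CPM. Knockout replicate 3 was thus the highest of all 6 libraries and knockout replicate 2 the lowest, so that the groups overlapped. The means were 52.3 ± 12.4 and 35.1 ± 30.4 CPM (SD, n = 3), and the log2 fold change was -0.57 ± 0.61 (SE, edgeR adjusted p = 0.566). Leaving out knockout replicate 3 moved it to -1.45 (edgeR adjusted p = 0.143), and leaving out knockout replicate 2 moved it to -0.08 (0.932). With limma voom and quality weights it was -1.96 and passed (adjusted p = 0.0214). Ccng1, which encodes cyclin G1, a partner of protein phosphatase 2A that acts in the Mdm2 loop, lies at chr11:40748552-40755311. It was at 58.9, 41.5 and 60.6 CPM in the controls, against 46.7, 52.0 and 61.6 CPM in the knockouts. These ranges overlapped almost entirely, at a log2 fold change of -0.0075 ± 0.22 (SE, edgeR adjusted p = 0.986), with a sign that flipped to 0.0058 under DESeq2's size factors.

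The feedback genes differed by less than the spread between libraries. Mdm2, the ubiquitin ligase that limits p53 (chr10:117688875-117710758), was at 34.1, 31.1 and 28.1 CPM in the controls, against 22.3, 32.2 and 36.3 CPM in the knockouts. The knockouts thus held both the lowest and the highest Mdm2 value of the series, and the log2 fold change was -0.04 ± 0.23 (SE, edgeR adjusted p = 0.922). Trp53inp1 (chr4:11156431-11174379), whose product helps kinases activate p53 and also takes part in autophagy, was at 70.6, 47.0 and 64.5 CPM in the controls. In the knockouts it was at 53.6, 42.7 and 62.7 CPM. Its groups overlapped, at a log2 fold change of -0.20 ± 0.24 (SE, edgeR adjusted p = 0.612), although limma voom with quality weights called it lower at -0.51 (adjusted p = 0.0361).

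Of the 5 genes linked to cell death, Phlda3 had separate groups and the other 4 did not. Phlda3 (chr1:135766119-135769136) encodes a membrane-lipid binding protein that restrains the survival kinase Akt. Its levels were 12.5, 12.98 and 15.04 CPM in the controls but 3.74, 2.41 and 8.49 CPM in the knockouts. Each knockout library was below each control library, with knockout replicate 3 nearest to them. The means were 13.5 ± 1.36 and 4.88 ± 3.20 CPM (SD, n = 3), so the knockout mean was 36.2% of the control mean. The log2 fold change of -1.46 ± 0.43 (SE) did not pass (edgeR adjusted p = 0.0827). It did pass without knockout replicate 3, at -2.12 (edgeR adjusted p = 0.0142), and it was -1.46 without control replicate 2 (0.136). Over all tested genes, 17.9% had separate groups with the knockouts lower and 17.3% with them higher, against 2 and 0 of the 10 members.

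Bax (chr7:45461697-45466898) encodes the protein that forms pores in the outer mitochondrial membrane when cells die. It was at 37.2, 49.6 and 49.8 CPM in the controls, against 40.7, 20.4 and 27.9 CPM in the knockouts. Knockout replicate 1 lay within the control range and the other knockouts below it, giving a log2 fold change of -0.62 ± 0.28 (SE, edgeR adjusted p = 0.186). It passed with limma voom and quality weights, at -0.80 (adjusted p = 0.0147), and ran from -0.90 to -0.39 as single libraries were left out. Bbc3 (chr7:16308393-16318205) encodes PUMA, which frees Bax-type proteins from their inhibitors. It was at 20.1, 12.7 and 14.2 CPM in the controls, against 25.1, 8.02 and 14.9 CPM in the knockouts. The highest and the lowest Bbc3 level were therefore both in knockout libraries. The log2 fold change was 0.03 ± 0.38 (SE, edgeR adjusted p = 0.967), with a sign that flipped to -0.25 when library totals were the only scaling.

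Aen and Zmat3 completed the death group. Aen (chr7:78895854-78911209), a nuclease that cuts DNA and RNA during apoptosis, had the highest fold change of the 10. It was at 10.98, 7.88 and 10.4 CPM in the controls, against 10.8, 13.4 and 19.1 CPM in the knockouts. Knockout replicate 1 lay just below control replicate 1, so the groups overlapped, and the log2 fold change of 0.56 ± 0.27 (SE) did not pass (edgeR adjusted p = 0.212). Aen remained above 0 in every setting, from 0.32 to 0.74. Zmat3 (chr3:32334792-32366014) encodes a zinc finger protein that binds RNA and regulates splicing and stability of transcripts. It was at 16.3, 8.47 and 12.7 CPM in the controls, against 8.82, 9.26 and 19.2 CPM in the knockouts, with a log2 fold change of -0.0062 ± 0.36 (SE, edgeR adjusted p = 0.993) and a sign that flipped to 0.0015 under DESeq2's size factors.

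Gdf15 had the lowest fold change and the lowest p of the 10 members. It encodes a secreted stress hormone of the TGF-beta superfamily that acts on the hindbrain and lowers food intake, and lies at chr8:70629393-70632456. Control replicates 1, 2 and 3 had 28.9, 23.5 and 28.5 CPM, whereas the knockouts had 9.21, 2.94 and 10.9 CPM. All knockout libraries were below all controls, and the controls were close to each other. The means were 27.0 ± 2.98 and 7.69 ± 4.19 CPM (SD, n = 3), so the knockout mean was 28.5% of the control mean. The log2 fold change was -1.81 ± 0.42 (SE) and missed the threshold (edgeR adjusted p = 0.0520). The call turned on small changes in processing: by edgeR the adjusted p was 0.0495 with unstranded counts, 0.0234 with no low-count filter and 0.0330 without knockout replicate 3. It was 0.0879 without control replicate 2, at a log2 fold change of -1.87, and 0.104 without knockout replicate 2, at -1.41. DESeq2 gave -1.80 (adjusted p = 9.5e-04). Gdf15 was below 0 in every setting.

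**Figure D2:**
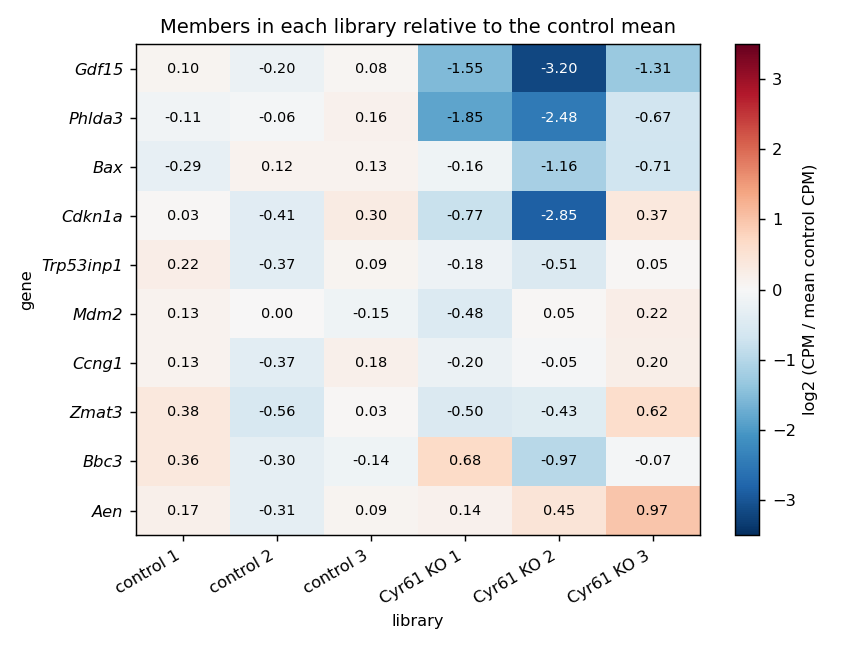
Each cell is a member's CPM in 1 library divided by its mean over the 3 controls, on a log2 scale (blue lower, red higher), with genes ordered by fold change. Gdf15, Phlda3 and Bax are negative in all 3 knockouts, while Cdkn1a is at -2.85 in knockout replicate 2 and at 0.37 in knockout replicate 3.

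The knockout libraries differed among themselves across the member genes. Knockout replicate 3 held the highest level of 5 members, Cdkn1a, Mdm2, Ccng1, Zmat3 and Aen, and knockout replicate 2 held the lowest level of 6, Cdkn1a, Bax, Bbc3, Gdf15, Phlda3 and Trp53inp1. The median of the 10 members, as log2 of CPM over the control mean, was -0.34, -0.74 and 0.12 in knockout replicates 1, 2 and 3, and 0.13, -0.31 and 0.09 in the controls. The medians thus ran further apart in the knockouts, with knockout replicate 3 within the controls. The members' median fold change moved with the libraries kept, to -0.39 without knockout replicate 3, -0.06 without knockout replicate 2 and 0.016 without control replicate 1. Summed levels of 24 markers of dividing cells were 86.8, 77.6 and 163 CPM in knockout replicates 1, 2 and 3 and 154 to 284 CPM in the controls. Of the 24, edgeR called 0, and 10 were lower at an unadjusted p under 0.05, against 16.1% of all genes. DESeq2 called 6 lower, against 10.2%, and limma voom with quality weights 19, against 17.8%. Without knockout replicate 3 edgeR called 14 lower, against 4.35%. Their part in the Cdkn1a spread was not tested.

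Cdkn1a stood out in that spread. The SD of log2(CPM + 0.5) over the knockouts was 1.58, and 0.103% of all tested genes had a larger one there. In the controls its SD was 0.35, and 46.4% of genes had a larger one. Gdf15 and Phlda3 had knockout SDs of 0.94 and 0.83, which 1.38% and 2.59% of genes exceeded, and control SDs of 0.16 and 0.14, which 81.2% and 85.7% exceeded. Bbc3 was also at 0.79 in the knockouts, exceeded by 3.03% of genes. Ccng1 and Trp53inp1 were the members with the smaller spread in the knockouts, at 0.20 and 0.28, below and near the median of 0.27 over all genes. As a plain ratio, the highest knockout library was 9.28 times the lowest for Cdkn1a, 3.70 times for Gdf15 and 3.52 times for Phlda3. The difference in spread between the groups was not tested, since each group holds 3 libraries.

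**Figure D3:**
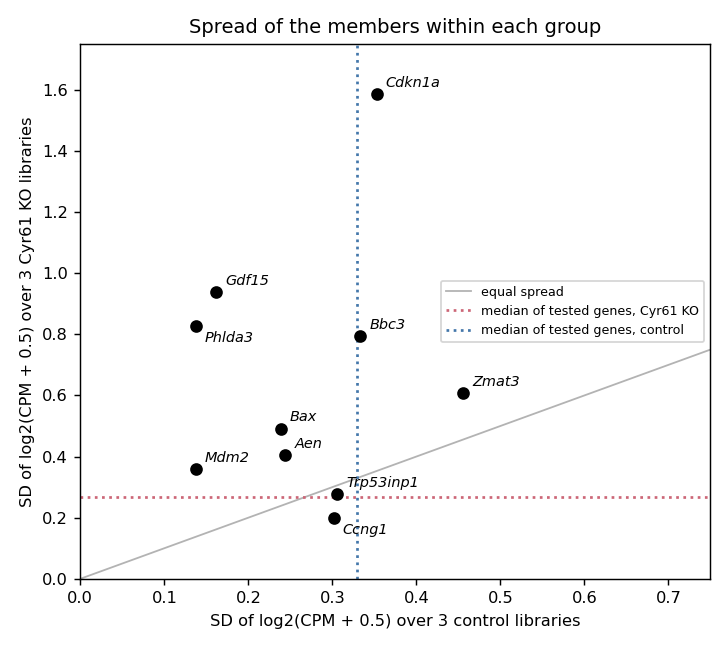
SD of log2(CPM + 0.5) over the 3 control libraries (x axis) and the 3 Cyr61 KO libraries (y axis) for each member, with dotted lines at the medians over all tested genes and a grey line of equal spread. The axes differ in scale. Cdkn1a lies highest at 1.58 in the knockouts, and 8 members lie above the line of equal spread.

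Levels per length were compared as CPM per kilobase of merged GENCODE M21 exons. In the controls Bax was highest at 28.9 ± 4.58 CPM per kilobase (SD, n = 3) and did not overlap the next gene. Ccng1, Cdkn1a and Gdf15 followed at 15.3, 14.7 and 14.6, with ranges that overlapped from each to the next. Trp53inp1, Phlda3, Bbc3 and Mdm2 came below a gap at 9.37, 8.66, 7.39 and 6.12, again overlapping from each to the next, and Aen and Zmat3 were lowest at 1.68 and 1.09. In the knockouts the order was Bax, Ccng1, Cdkn1a, Trp53inp1, Bbc3, Mdm2, Gdf15, Phlda3, Aen and Zmat3, from 18.8 to 1.09 CPM per kilobase. Gdf15 stood in the fourth place in the controls at 14.6 ± 1.61 and in the seventh in the knockouts at 4.15 ± 2.26. Every neighbouring pair in the knockout order overlapped except Aen and Zmat3. Merged exon length includes all annotated isoforms, so these levels are approximate. Bax alone of the members overlaps another annotated protein-coding gene on its own strand, and the effect of that on its counts was not tested.

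p53 itself and its regulators are measured here as transcripts, whereas p53 is controlled mainly through protein stability. Trp53, the p53 gene (chr11:69580359-69591873), was at 33.3, 43.2 and 35.7 CPM in the controls, against 21.5, 26.5 and 30.8 CPM in the knockouts. Each knockout was below each control, at a log2 fold change of -0.51 ± 0.21 (SE) that did not pass (edgeR adjusted p = 0.166). Of 18 listed genes, 16 were tested and edgeR called 0. Of these, 2 had an unadjusted p under 0.05 and were lower, 2 had one and were higher, against 16.1% and 11.3% of all genes. DESeq2 called 2, Chek1 lower and Usp7 higher, against 10.2% and 6.53%. These shares lie near the background, and the median was -0.07. Limma voom with quality weights called 1 of the 16 lower and 4 higher, against 17.8% and 15.3%. Separate groups were seen for 2 with the knockouts lower and 4 with them higher, against 17.9% and 17.3% of all tested genes. Chek1, a checkpoint kinase of replicating cells, was at -2.19 ± 0.61 (SE, edgeR adjusted p = 0.0778) and at 0.927 to 2.55 CPM in the controls against 0.213 to 0.505 CPM in the knockouts. Usp7, a deubiquitinase of Mdm2 and p53, was at 0.52 and Atm, the DNA break kinase, at 0.54, with adjusted p of 0.123 and 0.163 by edgeR and with all knockouts above all controls for both. The relatives Trp63 and Trp73 had too few reads to be tested, at no more than 0.138 and 0.0355 CPM in any library.

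Other p53 targets were read from 3 lists, of arrest, death, and repair and metabolism genes, 41 in all, each of them tested. Of the 41, 1 was called lower and 1 higher by edgeR, while 11 had an unadjusted p under 0.05 and were lower and 1 had one and was higher. The background was 2.37% lower and 1.07% higher for the edgeR calls, and 16.1% lower and 11.3% higher at that unadjusted level. The median log2 fold change was -0.21, with 27 genes below 0 and 14 above, where 51.6% of all tested genes were below 0. Btg2, an antiproliferative cofactor, was the arrest gene called, and was at 49.998, 50.5 and 45.3 CPM in the controls and 22.7, 9.36 and 17.2 CPM in the knockouts. It fell by 1.56 on the log2 scale with an SE of 0.31 (edgeR adjusted p = 0.0371). That call did not survive leaving out control replicate 1, control replicate 2, knockout replicate 1 or knockout replicate 2 (edgeR adjusted p = 0.0742, 0.0720, 0.0688 and 0.113).

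The other 9 arrest genes did not pass in the main edgeR fit. DESeq2 called 4 of the 10 lower, against 10.2% of all genes, and limma voom with quality weights 5, against 17.8%. The list's median log2 fold change was -0.78, with 9 of its 10 genes below 0, against 51.6% of all tested genes. Separate groups with the knockouts lower were seen for 4 of the 10, against 17.9% of all tested genes. Without control replicate 2 the list's median was -0.41 and edgeR called 0 of its genes, where 1.22% of all genes were called lower. Plk3, a stress-responsive kinase, was at 67.6 to 160 CPM in the controls and 14.2 to 44.1 CPM in the knockouts, at -2.09 ± 0.47 (SE, edgeR adjusted p = 0.0505). Sfn, which encodes 14-3-3 sigma, was at -1.60 and Gadd45a, a growth arrest gene, at -0.99, with adjusted p of 0.130 and 0.131 by edgeR. Sfn groups did not overlap, while those of Gadd45a did. Control replicate 2 held 8.71 CPM of Sfn, against 2.22 and 2.48 CPM in control replicates 1 and 3.

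Of the 12 other death genes edgeR called 0, with 3 lower at an unadjusted p under 0.05, against 16.1% of all genes, and a median of -0.21. DESeq2 called 2 of them lower, against 10.2%. Dram1, which links p53 to autophagy, was at -1.71 ± 0.49 (SE, edgeR adjusted p = 0.0794). Pmaip1, which encodes the death activator NOXA, was at -1.80, Siva1 at -0.85 and the death receptor gene Fas at -0.59, with adjusted p of 0.105, 0.161 and 0.185 by edgeR. Knockouts lay below controls in all libraries for Dram1, Pmaip1 and Siva1, but not for Fas. In the list 3 genes had separate groups with the knockouts lower and 1 with them higher, against 17.9% and 17.3% of all tested genes.

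Among the 19 repair and metabolism genes, Pank1, a pantothenate kinase of coenzyme A synthesis, was the 1 called higher. It was at 104, 67.8 and 144 CPM in the controls, against 273, 295 and 248 CPM in the knockouts, and rose by 1.37 on the log2 scale with an SE of 0.31 (edgeR adjusted p = 0.0492). As single libraries were left out, the Pank1 call held without control replicate 2 or control replicate 3 and was lost without control replicate 1 or any 1 of the knockouts (edgeR adjusted p up to 0.201). With library totals as scaling the Pank1 and Btg2 calls were both lost (edgeR adjusted p = 0.0558 and 0.0630). Rps27l, a ribosomal protein-like gene with a close paralog, so that its counts are uncertain, was at 157 to 174 CPM in the controls and 81.4 to 95.9 CPM in the knockouts. Its log2 fold change of -0.90 ± 0.21 (SE) just missed the threshold (edgeR adjusted p = 0.0521). Cpt1c and Fdxr were at -1.37 and -0.70, with overlapping groups (edgeR adjusted p = 0.163 and 0.176). The list's median was -0.04.

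**Figure D4:**
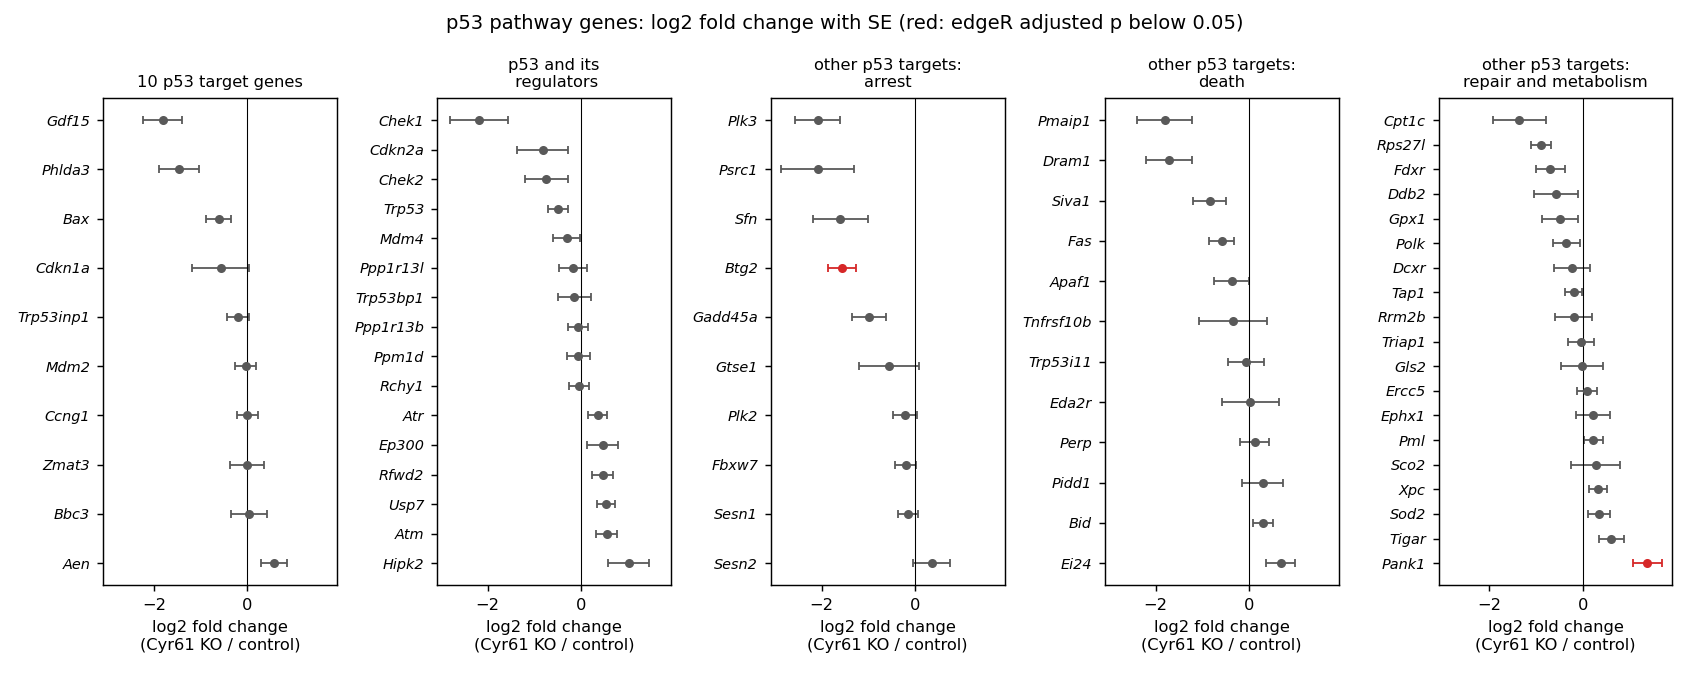
Log2 fold change (Cyr61 KO over control, x axis) with SE for every tested gene of the 10 members, the p53 regulators and the 3 lists of other targets. Red marks an edgeR adjusted p below 0.05, which only Btg2 at -1.56 and Pank1 at 1.37 reached.

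Markers of the cell types in liver were also counted, and their part in the member values was not tested. The counts are to be read against the 2.37% of all genes called lower and the 1.07% called higher by edgeR. Of 14 markers of monocyte-derived macrophages 7 were called lower by edgeR, with summed levels of 585 to 1875 CPM in the controls and 171 to 328 CPM in the knockouts. Of 12 stellate cell and fibroblast markers 6 were called lower, at 899 to 1578 against 350 to 600 CPM. Of 12 cholangiocyte markers 2 were called lower, at 271 to 1471 against 113 to 197 CPM. Spp1 stands in both the macrophage and the cholangiocyte list and enters both sums. Of 12 hepatocyte markers 1 was called higher and 0 lower, at 50722 to 136140 against 132890 to 163610 CPM. Of 10 Kupffer cell markers 1 was called lower and 1 higher, at 936 to 1197 against 322 to 874 CPM. T and NK cell markers summed to 10.9 to 98.3 CPM in the controls and 4.84 to 6.06 CPM in the knockouts, with 1 of 12 tested called lower. Neutrophil markers summed to 16.2 to 69.5 against 2.87 to 7.21 CPM, with 2 of 5 tested called lower, and B and plasma cell markers to 13.4 to 61.7 against 4.78 to 5.72 CPM, with 1 of 6 called lower. Of 10 endothelial markers 2 were called higher and 0 lower, at 156 to 274 against 216 to 318 CPM. No marker of these 9 lists was at 0 in all 6 libraries. All of these marker calls were lost when knockout replicate 1 was dropped, a fit in which edgeR called 7 genes in all. Dropping knockout replicate 2 left 2 macrophage markers called lower and no other marker of these lists. That fit called 24 genes in all, and 0.0860% of all genes lower. Control replicate 2 held the lowest control sum of the hepatocyte markers and the highest of each other list. Without that library edgeR called 3 macrophage, 6 stellate cell and fibroblast, 2 neutrophil and 1 B and plasma cell markers lower. The share over all genes was 1.22%. It then called 0 cholangiocyte, 0 Kupffer cell and 0 T and NK cell markers lower. Called higher were 1 hepatocyte, 1 Kupffer cell and 1 endothelial marker, against 0.923%.

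**Figure D5:**
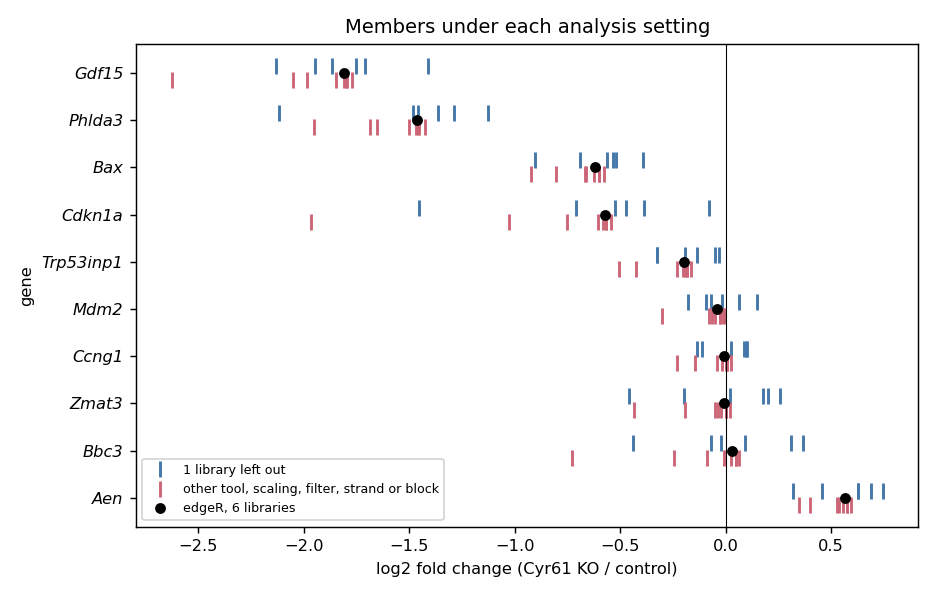
Log2 fold change of each member (x axis) with edgeR on 6 libraries (black points), with 1 library left out (blue ticks) and with another tool, scaling, filter, strand or block (red ticks). Gdf15, Phlda3, Bax, Cdkn1a and Trp53inp1 stay below 0 and Aen above 0 in every setting, while Mdm2, Ccng1, Zmat3 and Bbc3 have ticks on both sides.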

How the data were processed

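Reads per gene were deposited by the authors as 1 table of raw counts per library, unstranded and by strand. Trimmomatic 0.38, STAR 2.6.1a and the builds hg38 and mm10 are listed in the submitters' processing notes, with no annotation release or settings. The strand that suits the directional kit named in the labels' protocols was used; the other held 0.928% to 1.35% of stranded counts. A series-wide table repeated the unstranded counts. Rows naming no gene were left out; reads outside genes and in several places are therefore in no library size.

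All genes were fitted with edgeR 4.0.16 (R 4.3.3): filterByExpr (minimum count 10, minimum total 15), TMM, a group term, the two-sided quasi-likelihood F test and Benjamini-Hochberg adjustment over 13563 genes. SE is the size of the log2 fold change divided by the root of F. Spreads used log2 of CPM plus 0.5. DESeq2 1.42.0 and limma 3.58.1 were alternatives, with other scalings, filters, unstranded counts, a replicate block and each library left out. Gene coordinates come from GENCODE M21 (GRCm38, which mm10 also denotes).

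The members and lists were chosen with earlier results of these data known. Besides the members, Trp53 and Cyr61, the rule names genes of the p53 and integrated stress response lists that passed or had 1 of the 4 lowest p in a list. Alb was named after its values were seen, and Spp1 as a gene shared by marker lists.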

Additional observations from a re-analysis of the deposited data

How the results depend on the processing

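Members called numbered 0 with edgeR, 2 with DESeq2 (16.8% of all genes called), 5 with limma voom and quality weights (33.1%), where control replicate 2 had a weight of 0.181, 1 with no low-count filter (5.28%) and 1 with unstranded counts (3.41%). The count was 0 with DESeq2's size factors, library totals or a filter at CPM 1 in 3 libraries, and 0 to 2 as single libraries were left out, where the 2 came without Cyr61 KO replicate 3 (5.57%). With the replicate number as a block it was 2, Gdf15 and Phlda3 (edgeR adjusted p = 0.0063 and 0.0260), against 4.67% of all genes, 633 in number, and the Pank1 call was lost (0.0515). The labels do not say that the numbers pair the libraries. Deviations of same-numbered libraries from their group means correlated at -0.06, -0.24 and -0.45 across genes. These values cannot decide on pairing, since the deviations of the 3 libraries in a group depend on each other. All genes called numbered 467, and 2273 (DESeq2), 4483 (voom), 50 (library totals, 27 higher and 23 lower) and 944 (no filter), or 7 to 878 with 1 library left out, lowest without Cyr61 KO replicate 1. Library totals moved the all-gene median from -0.03 to -0.30 (log2) and that of the members to -0.36. Of the 41 other p53 targets, 2 were called, and 8, 15 and 0 with DESeq2, voom and library totals, or 0 to 3 with 1 library left out. Of the 16 regulators tested, 2 were called with DESeq2, 5 with voom and 0 whichever library was left out. These counts are to be read against 16.8%, 33.1% and 0.369% of all genes called with DESeq2, voom and library totals. With 1 library left out the share ran from 0.0502% to 6.31%.

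Values near 0 changed sign. Ccng1 was at 0.0057 with DESeq2, 0.0058 with its size factors, 0.023 with no filter and 0.0034 with the replicate block, and Zmat3 at 0.0014, 0.0015 and 0.022 in the first 3 of these. Bbc3 was at -0.73 with voom, -0.25 with library totals, -0.0080 with the filter at CPM 1 and -0.087 with the block. With 1 library left out, Mdm2 ran from -0.18 to 0.15, Ccng1 from -0.14 to 0.10, Bbc3 from -0.44 to 0.36, Zmat3 from -0.46 to 0.26 and the members' median from -0.39 to 0.016. The cause was not tested, beyond the smaller number of libraries. With 68 or more reads per library for each member, the spread between 3 libraries a group limits the precision more than counting does.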

Other observations

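Gdf15 is known to respond also to the integrated stress response, through which the factors ATF4 and CHOP act. Of 16 listed genes of this pathway edgeR called 6 lower and 0 higher, and 10 did not pass, 2 of them above 0, with a median log2 fold change of -1.09, where 2.37% of all tested genes were called lower. Atf3, a stress-induced transcription factor, was at 19.96 to 35.03 CPM in the controls and 1.81 to 4.68 CPM in the knockouts, with -3.31 as its log2 fold change (edgeR adjusted p = 0.0107). Ddit3, which encodes CHOP, was at 15.7 to 38.7 CPM in the controls and 3.12 to 5.08 CPM in the knockouts, at -2.71 (0.0176). Fgf21, a hepatic hormone gene, was at -2.76, Asns, the asparagine synthetase gene, at -2.19, Nupr1, a stress cofactor gene, at -2.66 and Phgdh, of serine synthesis, at -2.64 (log2 fold changes, edgeR adjusted p = 0.0237, 0.0237, 0.0427 and 0.0458). Over the whole list, 8 of the 16 genes had separate groups with the knockouts lower, the 6 called genes among them. With the knockouts higher there were 0, and the shares of all tested genes were 17.9% and 17.3%. Atf4, at -0.48 (edgeR adjusted p = 0.229), was not called, and was chosen for mention after its value was seen. The count was 4 without control replicate 2 and 3 without control replicate 1, where 1.22% and 0.949% of all genes were called lower. It was 0 without Cyr61 KO replicate 1 and 1 without Cyr61 KO replicate 2, against 0.0215% and 0.0860%. When libraries were scaled by totals alone it was 1, against 0.170%. The calls over all genes thus fell in these fits as well. The list's part in the Gdf15 values was not tested.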
